A study of Mus musculus with 20 samples.

Results

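Regrown liver, taken 14 d and 21 d after partial hepatectomy (PHx), was compared with undamaged liver in 6 of the 20 libraries of the series. The 6 were chosen by their labels: PHx 14 d replicates 1 and 2, PHx 21 d replicates 1 and 2, and undamaged replicates 1 and 2. The 4 PHx libraries were pooled as regrown liver. All came from C57BL/6 mice, and the resection removed 70% of the liver. RNA was read by bulk sequencing of freshly isolated hepatocytes, per the labels' protocols. The labels of the undamaged libraries and of replicate 1 at each time carry the cell type entry "primary hepatocyte", and those of replicate 2 at 14 d and 21 d carry none. Replicate 2 of the PHx times belongs to a second submission, and both undamaged libraries and replicate 1 of the PHx times belong to the first. Neither the age nor the sex of the mice stands in the labels, nor do these say how many animals gave the libraries of a group, so a p-value reflects the variation among these 6 libraries alone, part of which may be technical. Of 54532 listed genes, 10438 had an FPKM (fragments per kilobase of transcript per 1000000 mapped fragments) of at least 1 in 2 or more of the 6 libraries and were tested.

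After removal of the larger lobes the remaining lobes of a rodent liver enlarge, mainly by growth and division of hepatocytes. In the first hours hepatocytes switch on immediate early genes and lower much of their metabolic expression. Within days they replicate DNA and divide, and in the weeks that follow the organ regains its mass but not the lost lobes. Differentiated hepatocytes secrete most plasma proteins, make bile acids and cholesterol, detoxify drugs, and divide these tasks between periportal cells near the incoming blood and pericentral cells near the central vein. Libraries of isolated hepatocytes also carry RNA of Kupffer cells, endothelial cells and stellate cells. In bulk samples fewer cells of a type and less RNA per cell cannot be told apart.

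Values are the deposited FPKM. In every list of 4 regrown values below, the order is 14 d replicate 1, 14 d replicate 2, 21 d replicate 1 and 21 d replicate 2, and undamaged replicate 1 stands before undamaged replicate 2. Differences are the mean of log2(FPKM + 1) in the 4 regrown libraries minus the mean in the 2 undamaged libraries, which understates changes of low genes. Intervals are 95% intervals from limma, which was fitted across all 10438 genes. A gene was called at a Benjamini-Hochberg adjusted p under 0.05 and an absolute difference of at least 1. Because the undamaged libraries differ in acute-phase genes, a gene is also described as above both or below both when all 4 regrown values lay outside both undamaged values. It is counted as outside by at least 1 when its difference from the mean of both undamaged libraries was also at least 1 in size. Its distance from the nearer undamaged library may be smaller.

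The undamaged libraries were the least alike of any pair among the 6 libraries. Their Spearman correlation across the 10438 genes was 0.836, against 0.919 to 0.949 for the 6 pairs of regrown libraries. They differed by at least 1 on the log2 scale in 1883 genes, against 633 genes between the 14 d libraries and 684 between the 21 d libraries. Recovered read totals of the 6 libraries ran from 13.7 M to 25.5 M (1 M is 1000000 reads). FPKM summed to 988797 in undamaged replicate 2 and to between 392291 and 469342 in the other 5 libraries. Hepatocyte markers were high in all 6 libraries, with summed FPKM of 47004, 54305, 60795 and 80133 in regrown liver and 70105 and 85182 in undamaged liver. Markers of 13 Kupffer cell and macrophage genes summed to 551, 539, 285 and 329 FPKM in regrown liver, between 49.0 FPKM in undamaged replicate 1 and 1250 FPKM in undamaged replicate 2. These differences between the undamaged libraries touch every comparison below, and their part in the results was not tested.

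**Figure D1:**
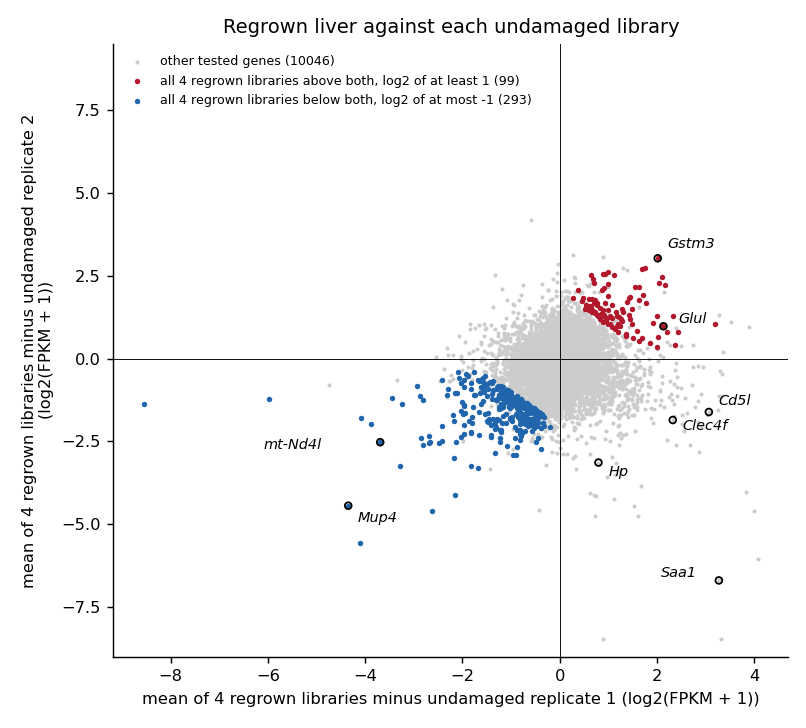
Each point is 1 of the 10438 tested genes, with the mean log2(FPKM + 1) of the 4 regrown libraries minus undamaged replicate 1 on the horizontal axis and minus undamaged replicate 2 on the vertical axis. The 99 genes above both undamaged libraries and at least 1 above their mean lie upper right. The 293 genes below both and at least 1 below their mean lie lower left. Saa1 and Clec4f lie between the undamaged libraries, lower right.

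The test called 1 gene of 10438, Mup4, and it was lower in regrown liver. Mup4 encodes a major urinary protein, one of a family of secreted lipocalins that bind pheromones and that adult male mouse liver makes in quantity. Mup4 had 0.276, 0, 0.971 and 0 FPKM in regrown liver, against 24.7 and 26.3 FPKM in undamaged liver. Its 4 regrown values lay far below both undamaged values and did not overlap with them. The difference was -4.39 (SE 0.295, 95% interval -5.08 to -3.70; limma, adjusted p = 0.00968). Behind these values stood 6, 0, 22 and 0 recovered reads in regrown liver, against 466 and 264 reads in undamaged liver. A share of 12.4% of the 50-base windows of the transcript also occurs in another gene. Across the 12 libraries from 6 h to 7 d, Mup4 had 624 reads in replicate 2 at 24 h, 12 reads in replicate 1 at 12 h and 0 in the other 10. Calls made up 0% of the tested genes in the higher direction and 0.00958% in the lower direction. At an unadjusted p under 0.05, without the minimum on the difference, limma counted 555 higher genes (5.32%) and 987 lower genes (9.46%). The next smallest adjusted p was 0.0630, for Snora31. Without undamaged replicate 1 the calls numbered 586 (111 higher and 475 lower), without undamaged replicate 2 they numbered 47 (24 higher and 23 lower), and without 14 d replicate 1, 14 d replicate 2 or 21 d replicate 2 they numbered 0, with an adjusted p of 0.0709 to 0.0867 for Mup4. With 0.1 in place of 1 added to FPKM there were 0 calls, and with FPKM rescaled to equal sums there were 11 higher and 2 lower calls, Mup4 among them (adjusted p = 0.00044).

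Mup2, a near relative on the same chromosome, was also below both undamaged libraries, with 6.00, 5.65, 9.42 and 5.05 FPKM in regrown liver, against 107 and 27.9 FPKM in undamaged liver. Its difference was -2.93 (95% interval -4.13 to -1.73), and 78.2% of its 50-base windows occur in another gene, so reads may be shared within the family. The promoter windows of both genes are shown because these genes stood below both undamaged libraries and belong to one family. They are RefSeq sequences of GRCm38.p6, from 250 bases before to 50 bases after the annotated start, read 5′ to 3′ on the minus strand, with the first TATA motif (TATATAA, searched on both strands) in capitals. Mup4 lies at chr4:59960618-59960917 and Mup2 at chr4:60139807-60140106.
Mup4: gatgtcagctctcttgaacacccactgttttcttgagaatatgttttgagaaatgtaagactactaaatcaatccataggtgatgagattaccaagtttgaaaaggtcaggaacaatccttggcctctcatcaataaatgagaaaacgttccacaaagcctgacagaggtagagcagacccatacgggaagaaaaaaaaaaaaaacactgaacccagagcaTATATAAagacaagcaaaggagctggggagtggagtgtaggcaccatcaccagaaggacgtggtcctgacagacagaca
Mup2: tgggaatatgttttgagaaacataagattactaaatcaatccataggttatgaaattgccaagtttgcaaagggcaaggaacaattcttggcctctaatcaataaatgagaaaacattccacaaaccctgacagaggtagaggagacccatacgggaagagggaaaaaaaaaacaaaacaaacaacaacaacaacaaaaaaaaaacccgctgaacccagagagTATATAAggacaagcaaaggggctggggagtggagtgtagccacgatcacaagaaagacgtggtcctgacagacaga
The motif begins at -29 in the Mup4 window and at -27 in the Mup2 window, counted from the start. A global alignment of the windows had 335 columns, gaps included, and 242 of these (72.2%) held the same base in both. The share over columns without a gap is higher. TATATAA occurs in 1065 of the 32851 promoter windows of the same length (3.24%). The STAT motif TTCNNNGAA had 0 matches in either window and is present in 2726 windows (8.30%). Both motifs were chosen after the values were seen.

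With a difference of at least 1 from the undamaged mean, 99 genes were above both (0.948% of those tested) and 293 below both (2.81%). Of these only Mup4 was called, which left 292 below both without a call. Without the minimum on the difference, 1211 genes were above both (11.6%) and 1505 below both (14.4%). The smallest p an exact permutation of 4 against 2 libraries can give is 0.133, so not overlapping is a description. Without undamaged replicate 1 the count outside by at least 1 was 1571 in place of 392, and without undamaged replicate 2 it was 734. Rescaling FPKM to equal sums moved the median difference over all genes from -0.02 to 0.46. After it 2870 genes were above both (27.5%) and 185 below both (1.77%). These shares are the rescaled background for counts after rescaling. Of the 12 genes above both with the largest moderated t among those of a mean FPKM of at least 5 in regrown liver, Gstt2, Gstm2 and Gstm3 encode glutathione transferases. Gstm3 had 98.0, 49.5, 24.5 and 39.5 FPKM in regrown liver, against 10.8 and 4.84 FPKM in undamaged liver, a difference of 2.52 (95% interval 1.23 to 3.82). Every regrown value was more than double the higher undamaged value. Mpp1, a membrane scaffold protein, had 6.69, 6.86, 7.76 and 7.36 FPKM in regrown liver, against 3.33 and 2.30 FPKM in undamaged liver. Its regrown values were close together and its difference was 1.11 (95% interval 0.68 to 1.54). Kyat3, an aminotransferase that acts on kynurenine, Nudt19, a mitochondrial or peroxisomal hydrolase of coenzyme A, Plscr2, a phospholipid scramblase, Eno1b, an enolase copy, and Rps12, a ribosomal protein, differed by 1.07, 1.05, 1.25, 1.82 and 1.17 in that order. A share of 85.2% of the 50-base windows of Eno1b occurs in another gene.

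The 12 genes below both with the largest moderated t, among those of a mean FPKM of at least 5 in undamaged liver, included 3 cell surface receptors. Ptprf, a receptor tyrosine phosphatase, had 11.5, 10.8, 11.5 and 11.1 FPKM in regrown liver, against 29.5 and 28.2 FPKM in undamaged liver. Its 4 regrown values differed little among themselves and stood well below both undamaged values. Plxnb1, a semaphorin receptor, and Itga5, the integrin alpha chain of the fibronectin receptor, differed by -1.18 and -1.73, and Pcdh1, a protocadherin, by -1.25. Helz2, a nuclear helicase known as a coactivator, had 4.55, 3.99, 4.84 and 4.90 FPKM in regrown liver, against 16.2 and 13.3 FPKM in undamaged liver, a difference of -1.50 (95% interval -1.92 to -1.07). Neat1, a long non-coding RNA that builds nuclear paraspeckles, had 1.40, 2.64, 1.64 and 2.51 FPKM in regrown liver, against 7.64 and 8.52 FPKM in undamaged liver. All 4 of its regrown values were under 3 FPKM and both undamaged values over 7. Pitx3, a homeobox factor known from lens and midbrain neurons, had 0, 0.754, 0.427 and 1.61 FPKM in regrown liver, against 10.5 and 7.35 FPKM in undamaged liver. Snora31, a small nucleolar RNA, and Mir6397, a microRNA precursor, rested on 19 or fewer reads in each library. Of short genes with under 200 exon bases, 0 of 173 tested were above both by at least 1 and 40 were below. Among snoRNAs 13 of 42 and among microRNA precursors 16 of 51 were below both, beside 14.4% of all tested genes. Among protein-coding genes outside by at least 1, the median GC content was 47.7% for the 71 above and 53.3% for 202 below. Over 9356 tested protein-coding genes it was 49.6%. The part of length and GC content in these counts was not tested.

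**Figure D2:**
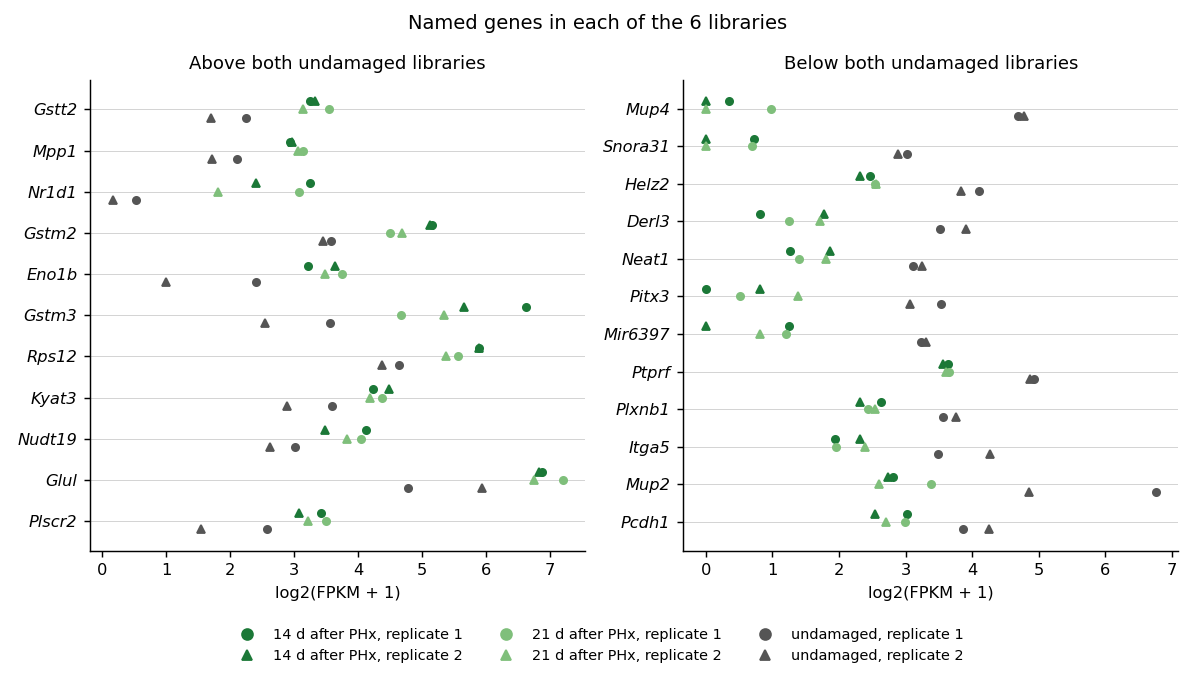
Values of log2(FPKM + 1) of 23 genes chosen by moderated t are plotted for each of the 4 regrown libraries (green) and 2 undamaged libraries (grey), with circles for replicate 1 and triangles for replicate 2. In every row the green and grey symbols do not overlap, which the choice of these genes fixes.

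Return was read from the interval of the difference. Of 4625 genes with a mean FPKM of at least 5, 2025 (43.8%) had a 95% interval inside 2-fold in either direction. With FPKM rescaled to equal sums 496 genes had. The median half-width of the interval was 0.671 on the log2 scale, so for many of the rest these libraries could neither bound nor show a change. The mean of the regrown libraries lay between the undamaged values in 4173 of the 10438 genes.

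The transcription factors that define hepatocytes had 0 of 20 genes above both and 0 below both, and 0 were called; their median was -0.24, or 0.28 after rescaling and -0.18 relative to all genes. Of 16 with a mean FPKM of at least 5, 6 had intervals inside 2-fold, beside 43.8% of all genes at that level. Nr1h3, the oxysterol receptor, had 27.6, 37.5, 31.5 and 29.5 FPKM in regrown liver, against 29.9 and 33.0 FPKM in undamaged liver, a difference of 0.00 (95% interval -0.56 to 0.55). The regrown and undamaged values overlapped. Nr1h4, the bile acid receptor FXR, and Prox1, a homeobox factor of hepatocytes, differed by 0.23 and 0.01, with intervals of -0.35 to 0.80 and -0.66 to 0.67. Nr5a2, Nr1i2 and Esrra, all nuclear receptors, completed the 6. Hnf4a, the central hepatocyte regulator, had 85.5, 59.5, 103 and 62.6 FPKM in regrown liver, against 127 and 89.9 FPKM in undamaged liver. Its regrown values overlapped the undamaged ones, and its interval of -1.27 to 0.30 was wider than 2-fold on the lower side. Cebpa, which keeps hepatocytes differentiated, ranged more widely, with 144, 71.3, 181 and 85.0 FPKM in regrown liver, against 156 and 88.1 FPKM in undamaged liver. In both groups replicate 1 was higher than replicate 2.

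The summed level of mitosis genes in regrown liver lay within the undamaged range. The 29 mitosis genes summed to 7.11, 15.7, 6.27 and 16.5 FPKM in regrown liver, between 4.04 and 24.0 FPKM in undamaged liver, and only 4 of the 29 were high enough to test. At 72 h the same genes summed to 201 and 143 FPKM. Of the 18 DNA replication genes tested, 8 were above both (background 11.6%), 0 by as much as 1 on the log2 scale, and 0 were called. Pcna, the sliding clamp of DNA polymerase, had 11.9, 12.2, 12.4 and 10.3 FPKM in regrown liver, against 7.30 and 6.66 FPKM in undamaged liver. The 4 regrown values stood close together above both undamaged values, with a difference of 0.67 (95% interval 0.24 to 1.09). Rrm2, which supplies deoxynucleotides, differed by 0.42, and Dut, which removes dUTP, by 0.48. Ccnd1, the G1 cyclin that drives hepatocytes into the cycle, overlapped, with 3.40, 7.27, 8.08 and 6.38 FPKM in regrown liver, against 1.32 and 4.80 FPKM in undamaged liver. Cdkn1a, the kinase inhibitor p21 that restrains it, was below both, with 0.764, 2.56, 0.378 and 2.81 FPKM in regrown liver, against 7.47 and 10.1 FPKM in undamaged liver and a difference of -2.02 (95% interval -3.07 to -0.97). Replicate 1 was lower than replicate 2 at both regrown times.

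Medians of the metabolic lists depended on the scaling. Bile acid synthesis and transport (20 genes) had a median of -0.01 (0.67 after rescaling, 0.21 relative to all genes), against -1.77 at 6 h. The cytochrome P450 and drug metabolism list (35 genes) had a median of 0.09 (0.75 after rescaling, 0.29 relative to all genes), against -1.69 at 6 h. As deposited its members went both ways, with 7 above both, 5 of them by at least 1, and 10 below both, beside 11.6%, 0.948% and 14.4% of all tested genes. After rescaling 9 of the 35 were above both (rescaled background 27.5%) and 0 below both (rescaled background 1.77%). Both medians at 6 h are set against the same undamaged libraries as the regrown times. The libraries at 48 h, 72 h and 7 d had Xist at 13.6 to 23.7 FPKM and Ddx3y at 0, whereas the 6 libraries compared here had Xist at 0.0142 FPKM or less and Ddx3y at 10.9 to 16.9 FPKM, and the part of sex in the course over time was not tested. Cyp7a1, the rate-limiting enzyme of bile acid synthesis, had 61.2, 15.5, 70.1 and 23.9 FPKM in regrown liver, against 13.8 and 40.7 FPKM in undamaged liver. At both regrown times replicate 1 was above, and replicate 2 between, the undamaged values. Slc10a1, the bile acid importer, overlapped at a difference of -0.15, and Abcb11, the export pump, was below both at -1.03 (95% interval -1.67 to -0.38). Fasn, the fatty acid synthase, had 25.7, 31.3, 38.5 and 27.6 FPKM in regrown liver, against 38.8 and 23.9 FPKM in undamaged liver, and its difference of 0.00 had an interval inside 2-fold (-0.69 to 0.68). The 17 lipogenesis genes had a median of -0.50 in regrown liver (0.18 after rescaling, -0.28 relative to all genes), against -2.29 at 6 h.

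Periportal and urea cycle genes (20 tested) had a median of 0.07 (0.71 after rescaling, 0.25 relative to all genes), with 0 above both and 3 below both (background 14.4%). Cps1 and Ass1, the first and the argininosuccinate steps of the urea cycle, differed by -0.06 and 0.58 and overlapped with undamaged liver. Cyp2f2, a periportal P450, was below both, with 362, 558, 535 and 557 FPKM in regrown liver, against 810.0 and 1001 FPKM in undamaged liver. Of 23 ribosome biogenesis genes 8 of the 12 with a mean FPKM of at least 5 had intervals inside 2-fold (background 43.8%). The median of the 23 was 0.13, against 0.86 at 6 h. Of the 23, 6 were above both (background 11.6%) and 0 below both. After rescaling 12 were above both (rescaled background 27.5%), with a median of 0.60. Nuclear-encoded respiratory chain subunits had intervals inside 2-fold for 9 of 24 genes (background 43.8%) and a median of 0.29 (0.95 after rescaling, 0.49 relative to all genes).

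The 25 genes of cholesterol synthesis and uptake had medians of -2.98 at 6 h, -0.19 at 14 d and -0.78 at 21 d. The regrown median was -0.48, or 0.11 after rescaling and -0.35 relative to all genes. Of the 25, 0 were called, 0 were above both and 6 were below both (background 14.4%), of which 3 by at least 1. After rescaling 2 were above both (rescaled background 27.5%) and 1 below (rescaled background 1.77%). Dhcr7, the enzyme of the last step of cholesterol synthesis, had 18.5, 21.3, 12.3 and 16.1 FPKM in regrown liver, against 24.7 and 74.1 FPKM in undamaged liver. All 4 regrown values were below both undamaged values, of which replicate 2 was much the higher, with a difference of -1.31 (95% interval -2.34 to -0.28). Insig1, a sterol sensor of the ER that holds back synthesis, had 126, 160.5, 113 and 138 FPKM in regrown liver, against 163 and 212 FPKM in undamaged liver, and Srebf2, the transcription factor that drives the pathway, had 9.71, 8.81, 6.64 and 6.87 FPKM in regrown liver, against 10.7 and 17.3 FPKM in undamaged liver.

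**Figure D3:**
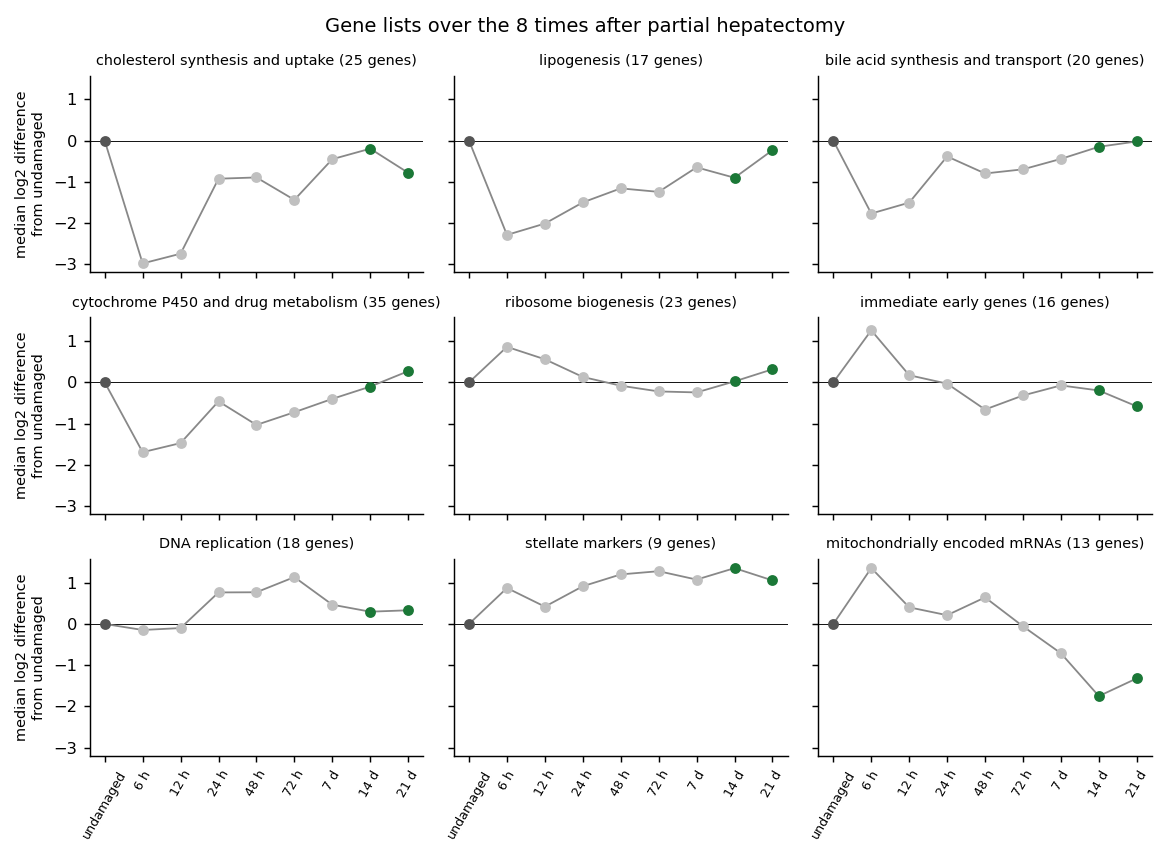
Median difference in log2(FPKM + 1) from the undamaged mean is plotted for 9 gene lists over the 8 times after partial hepatectomy, with 14 d and 21 d in green and undamaged liver, which every time shares, at 0. Cholesterol genes run from -2.98 at 6 h to -0.19 at 14 d and -0.78 at 21 d, while stellate markers stay above 0 and mitochondrially encoded mRNAs lie at -1.75 at 14 d and -1.32 at 21 d.

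Of 20 glutathione transferase genes tested, whose enzymes conjugate glutathione to reactive compounds, 9 were above both, 8 of them by at least 1. The family median was 0.82, or 0.35 against undamaged replicate 1 and 1.14 against undamaged replicate 2. The background is 11.6% above both and 0.948% by at least 1. The family was chosen after these values were seen, and 0 members were called. Gstm1, a main hepatic form, had 1139, 525, 425 and 519 FPKM in regrown liver, against 300.4 and 97.9 FPKM in undamaged liver, with 14 d replicate 1 the highest and undamaged replicate 2 the lowest. Its difference was 1.81 (95% interval 0.46 to 3.15). Gstt2 had 8.49, 9.08, 10.7 and 7.85 FPKM in regrown liver, against 3.76 and 2.26 FPKM in undamaged liver, and Gstm2 had 34.5, 33.8, 21.7 and 24.8 FPKM in regrown liver, against 10.9 and 9.96 FPKM in undamaged liver. In both genes the regrown values kept within a narrow range above both undamaged values. Gsta2 and Gsta4 differed by 1.72 and 1.59, Gsta3 by 1.06, and Gstp1, a form higher in male mice, overlapped at 0.38. Gsta3 stood 0.27 over undamaged replicate 1 and 1.84 over undamaged replicate 2. Gstm members share sequence: 28.8% of the 50-base windows of Gstm3, 18.9% of Gstm1 and 5.65% of Gstm2 occur in another gene. The share is 49.8% for Gsta2 and 0% for Gsta4.

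Aldo-keto reductases of the Akr1c family, which reduce steroids and other carbonyls, had 4 of 6 members above both (background 11.6%) and a median of 1.39. That median was 0.51 against undamaged replicate 1 and 2.25 against undamaged replicate 2. Akr1c6 had 611, 495, 904 and 476 FPKM in regrown liver, against 376 and 112 FPKM in undamaged liver. Akr1c19 differed by 1.74 and Akr1c20 by 1.23. Akr1c20 stood 0.38 over undamaged replicate 1 and 2.09 over undamaged replicate 2. Akr1c14 had regrown values that overlapped undamaged replicate 1, with 139, 98.6, 207 and 123 FPKM in regrown liver, against 113 and 14.6 FPKM in undamaged liver. Many of these genes are known targets of Nrf2, the factor that responds to oxidants. Of 13 Nrf2 targets tested, 5 were above both (background 11.6%), 0 below both (background 14.4%) and 0 called, with a median of 0.79. Among these 5 are Gstm1, Gstm2, Gstm3 and Gsta2, already counted in the transferase family, so this count repeats those values. Nqo1 and Gclc, which are Nrf2 targets outside the transferase family, overlapped with undamaged liver at differences of 0.95 and 0.10.

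Of 18 pericentral and Wnt target genes 6 were above both (background 11.6%), 4 of them by at least 1 (background 0.948%), and 1 was below both, with a median of 0.23. Glul, the glutamine synthetase of the cells around the central vein, had 116, 113, 146 and 106 FPKM in regrown liver, against 26.4 and 60.1 FPKM in undamaged liver. Its difference was 1.56 (95% interval 0.69 to 2.42), and the undamaged values themselves differed by more than 2-fold. Oat, ornithine aminotransferase of the same cells, had 292, 135, 571 and 159 FPKM in regrown liver, against 73.6 and 63.6 FPKM in undamaged liver, and Cyp2a5, the coumarin hydroxylase, had 237, 111, 597 and 139.7 FPKM in regrown liver, against 62.8 and 66.3 FPKM in undamaged liver. For both, 21 d replicate 1 was the highest library and both replicate 2 libraries were the closest to undamaged liver. Cyp2a5 differed by 1.73 (95% interval 0.20 to 3.26), and 37.0% of its 50-base windows occur in another gene. Cyp2e1 and Cyp1a2, other pericentral P450 genes, overlapped at 0.37 and -0.04. Cyp3a11, a main drug-metabolising P450, had 432, 406, 430.1 and 543 FPKM in regrown liver, against 232 and 202 FPKM in undamaged liver, a difference of 1.05 (95% interval 0.35 to 1.75).

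Stellate cell markers had 5 of 9 tested genes above both (background 11.6%), 4 of them by at least 1 (background 0.948%), and 0 called, with a median of 1.22 (2.13 against undamaged replicate 1 and 0.70 against undamaged replicate 2). Their sums were 125, 72.2, 67.5 and 58.5 FPKM in regrown liver, against 9.73 and 48.2 FPKM in undamaged liver. Of the 13 markers in the list, 9 were high enough to test, and Col1a1 and Reln were among those that were not. Dcn, the matrix proteoglycan decorin, had 45.1, 19.3, 18.4 and 17.0 FPKM in regrown liver, against 1.63 and 10.5 FPKM in undamaged liver, and Col3a1, a fibrillar collagen, had 2.15, 2.88, 2.43 and 1.43 FPKM in regrown liver, against 0.0596 and 0.768 FPKM in undamaged liver. The lowest of the 6 libraries for both was undamaged replicate 1. Lrat, which stores retinol as ester in these cells, had 3.36, 1.42, 1.56 and 1.66 FPKM in regrown liver, against 0.839 and 1.12 FPKM in undamaged liver. Des, their intermediate filament, overlapped at 0.54.

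Ribosomal protein genes had 19 of 43 above both (background 11.6%), 3 of them by at least 1, 0 below both and 0 called. Their median was 0.47, similar against either undamaged library (0.40 and 0.57). Rps12 had 58.0, 58.1, 46.2 and 40.2 FPKM in regrown liver, against 23.8 and 19.7 FPKM in undamaged liver. Of 480 processed pseudogenes tested, many of which copy such genes, 83 were above both (background 11.6%) and 33 below both (background 14.4%).

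Mitochondrially encoded mRNAs were below both in 10 of 13 genes, all 10 by at least 1 (background 14.4% and 2.81%), and 0 were called. After rescaling 6 of the 13 were below both (rescaled background 1.77%) and the median was -0.98, or -1.44 relative to all genes. As deposited the median was -1.66, or -1.05 against undamaged replicate 1 and -2.14 against undamaged replicate 2. Reads from the mitochondrial genome made up 4.13%, 5.64%, 4.28% and 8.41% of all reads in regrown liver, against 8.81% and 12.5% in undamaged liver. The mt-Nd5 mRNA, a subunit of complex I, had 1912, 1757, 2049 and 3911 FPKM in regrown liver, against 5268 and 10034 FPKM in undamaged liver. Its difference was -1.67 (95% interval -2.83 to -0.52), with 21 d replicate 2 the highest of the regrown libraries. The mt-Co1 and mt-Cytb mRNAs, of complexes IV and III, differed by -1.66 and -1.52. The mt-Co3 mRNA overlapped, with 58.3, 89.2, 52.0 and 946 FPKM in regrown liver, against 265 and 929 FPKM in undamaged liver. So did mt-Nd3 and mt-Nd6. Of the 50-base windows, 99.9% of mt-Co3, 98.0% of mt-Nd3 and 51.1% of mt-Co1 occur in another gene. The share is 7.61% for mt-Nd5 and 0% for mt-Nd6 and mt-Cytb. Mitochondrial tRNAs were below both in 8 of 18 genes (background 14.4%). Nuclear-encoded respiratory chain subunits of the same complexes had 6 of 24 genes above both (background 11.6%) and 1 below.

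Factors of the endoplasmic reticulum (ER) that glycosylate, fold and dispose of secreted proteins were a family chosen after the values were seen. Of 30 members, 19 were below both (background 14.4%), 13 of them by at least 1 (background 2.81%), and 0 were called. After rescaling 6 of the 30 were below both (rescaled background 1.77%) and the median was -0.33, or -0.79 relative to all genes. As deposited the median was -1.01, or -0.41 against undamaged replicate 1 and -1.63 against undamaged replicate 2. Derl3, which moves misfolded proteins out of the ER, had 0.766, 2.41, 1.37 and 2.29 FPKM in regrown liver, against 10.4 and 14.0 FPKM in undamaged liver, a difference of -2.32 (95% interval -3.03 to -1.62). Pdia6, a disulfide isomerase, had 73.3, 122, 61.7 and 97.5 FPKM in regrown liver, against 132 and 347 FPKM in undamaged liver, and Hsp90b1 and Calr, chaperones of the ER lumen, differed by -1.12 and -1.21. Hspa5, the chaperone BiP, had 164, 423, 195 and 281 FPKM in regrown liver, against 245 and 822 FPKM in undamaged liver, and its regrown values lay on both sides of undamaged replicate 1. Undamaged replicate 2 was the highest of the 6 libraries in all these genes. Among proteins that pass through the ER, the hepatocyte secreted list had 9 of 22 genes below both (background 14.4%), 0 above both and 0 called, with a median of -0.63. After rescaling 1 of the 22 was below both (rescaled background 1.77%) and the median was 0.05, or -0.41 relative to all genes. Apob, the scaffold of very low density lipoprotein, had 418, 176, 489 and 272 FPKM in regrown liver, against 703 and 741 FPKM in undamaged liver, and Alb, albumin, overlapped at a difference of -0.29.

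The promoter windows of 3 of these factors are shown because they hold the ER stress response element, through which such genes respond together to unfolded protein. The motif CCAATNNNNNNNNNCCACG was searched on both strands and is in capitals, in Derl3 as its reverse complement. The windows are RefSeq sequences of GRCm38.p6 on the plus strand, at chr10:75893148-75893447 for Derl3, chr12:17266339-17266638 for Pdia6 and chr2:34771840-34772139 for Hspa5.
Derl3: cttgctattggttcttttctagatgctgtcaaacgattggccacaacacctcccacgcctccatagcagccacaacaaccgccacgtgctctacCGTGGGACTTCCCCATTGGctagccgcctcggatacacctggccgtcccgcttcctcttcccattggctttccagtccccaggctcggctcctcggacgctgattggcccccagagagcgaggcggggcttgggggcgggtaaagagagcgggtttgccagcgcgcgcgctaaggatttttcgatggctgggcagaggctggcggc
Pdia6: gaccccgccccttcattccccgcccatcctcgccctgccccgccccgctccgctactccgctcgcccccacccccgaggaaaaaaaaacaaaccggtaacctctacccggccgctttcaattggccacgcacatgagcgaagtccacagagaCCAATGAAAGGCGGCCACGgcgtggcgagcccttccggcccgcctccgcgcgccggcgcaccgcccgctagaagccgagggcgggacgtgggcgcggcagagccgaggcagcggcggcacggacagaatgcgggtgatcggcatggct
Hspa5: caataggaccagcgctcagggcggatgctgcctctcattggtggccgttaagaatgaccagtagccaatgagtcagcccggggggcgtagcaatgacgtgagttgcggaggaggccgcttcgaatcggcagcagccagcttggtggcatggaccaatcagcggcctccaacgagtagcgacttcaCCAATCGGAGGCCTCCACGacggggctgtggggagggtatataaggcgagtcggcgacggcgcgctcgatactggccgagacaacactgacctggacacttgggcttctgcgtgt
In these windows the match begins at -156 in Derl3, at -98 in Pdia6 and at -65 in Hspa5, counted from the start. Of the 30 members 26 had a promoter window and 7 held the motif, namely Calr, Canx, Derl3, Hsp90b1, Hspa5, Pdia6 and Syvn1. Over all promoters 39 of 32851 windows held it (0.119%). This motif was also chosen after the values were seen, and a match is a description of the letters, not of binding.

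Genes that male mouse liver expresses more than female liver had 6 of 22 below both (background 14.4%), 0 above both and 0 called (Mup4 is not in this list), with a median of -0.68. After rescaling 1 of the 22 was below both (rescaled background 1.77%) and the median was 0.00, or -0.46 relative to all genes. Mup3 had 5129.7, 8239.8, 8286 and 11665 FPKM in regrown liver, against 12880.4 and 26686 FPKM in undamaged liver, and Elovl3, a fatty acid elongase, had 6.72, 219.7, 20.5 and 251 FPKM in regrown liver, against 536 and 521 FPKM in undamaged liver. Elovl3 was low in both replicate 1 libraries and nearer to undamaged liver in both replicate 2 libraries. Of all 20 major urinary protein genes tested, 6 were below both (background 14.4%) and the median was -0.69, or -0.01 after rescaling and -0.47 relative to all genes. After rescaling 3 of the 20 were below both (rescaled background 1.77%) and 1 above both (rescaled background 27.5%). In male mice these genes depend on pulses of growth hormone. Ghr, its receptor, had 40.9, 42.8, 84.1 and 65.5 FPKM in regrown liver, against 80.8 and 58.2 FPKM in undamaged liver, and Igf1, its main secreted product, had 60.3, 50.7, 78.1 and 56.8 FPKM in regrown liver, against 77.1 and 123 FPKM in undamaged liver. Both overlapped with undamaged liver. Igfals, which holds IGF1 in plasma, was below both, with 40.8, 44.4, 65.8 and 37.0 FPKM in regrown liver, against 77.3 and 101 FPKM in undamaged liver.

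Growth factor receptors had 5 of 16 genes below both (background 14.4%), 1 of them by at least 1, 0 above both and 0 called, with a median of -0.52. After rescaling 0 of the 16 were below both (rescaled background 1.77%) and 1 above (rescaled background 27.5%). The rescaled median was 0.07, or -0.39 relative to all genes. Lifr, the receptor of leukemia inhibitory factor, had 11.5, 22.6, 34.9 and 26.4 FPKM in regrown liver, against 60.3 and 47.9 FPKM in undamaged liver, a difference of -1.24 (95% interval -2.23 to -0.25). Fgfr4, the bile acid feedback receptor of hepatocytes, had 8.48, 9.61, 7.35 and 10.9 FPKM in regrown liver, against 17.1 and 21.0 FPKM in undamaged liver, and Insr, the insulin receptor, had 8.85, 4.48, 9.13 and 5.70 FPKM in regrown liver, against 13.3 and 13.1 FPKM in undamaged liver. Egfr and Met, receptors of the main hepatocyte mitogens, overlapped with undamaged liver at differences of -0.61 and -0.44.

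Of 18 circadian clock genes, 1 was above both, Nr1d1, a repressor of the clock. It had 8.50, 4.30, 7.46 and 2.51 FPKM in regrown liver, against 0.444 and 0.119 FPKM in undamaged liver, a difference of 2.29 (95% interval 1.33 to 3.25). Other clock outputs split the regrown libraries by submission. Dbp, a clock output factor, had 20.6, 0.128, 18.0 and 0.141 FPKM in regrown liver, against 0.0815 and 0.184 FPKM in undamaged liver. Only the replicate 1 libraries were high, and the replicate 2 libraries were at the level of undamaged liver. Nr1d2 had 16.2, 2.48, 12.7 and 2.73 FPKM in regrown liver, against 2.74 and 0.646 FPKM in undamaged liver, and Tef had 20.4, 2.18, 18.0 and 2.47 FPKM in regrown liver, against 5.10 and 1.07 FPKM in undamaged liver, with the same libraries high. Arntl, the activator of the clock whose RNA runs opposite to Nr1d1, had 0.254, 3.21, 0.184 and 3.47 FPKM in regrown liver, against 3.43 and 2.17 FPKM in undamaged liver, and here the replicate 1 libraries were low. The undamaged libraries belong to the same submission as replicate 1, and the labels give no hour at which livers were taken, so its part was not tested. With replicate 1 alone against undamaged liver the difference of Nr1d1 was 2.82 and that of Dbp 4.16.

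**Figure D4:**
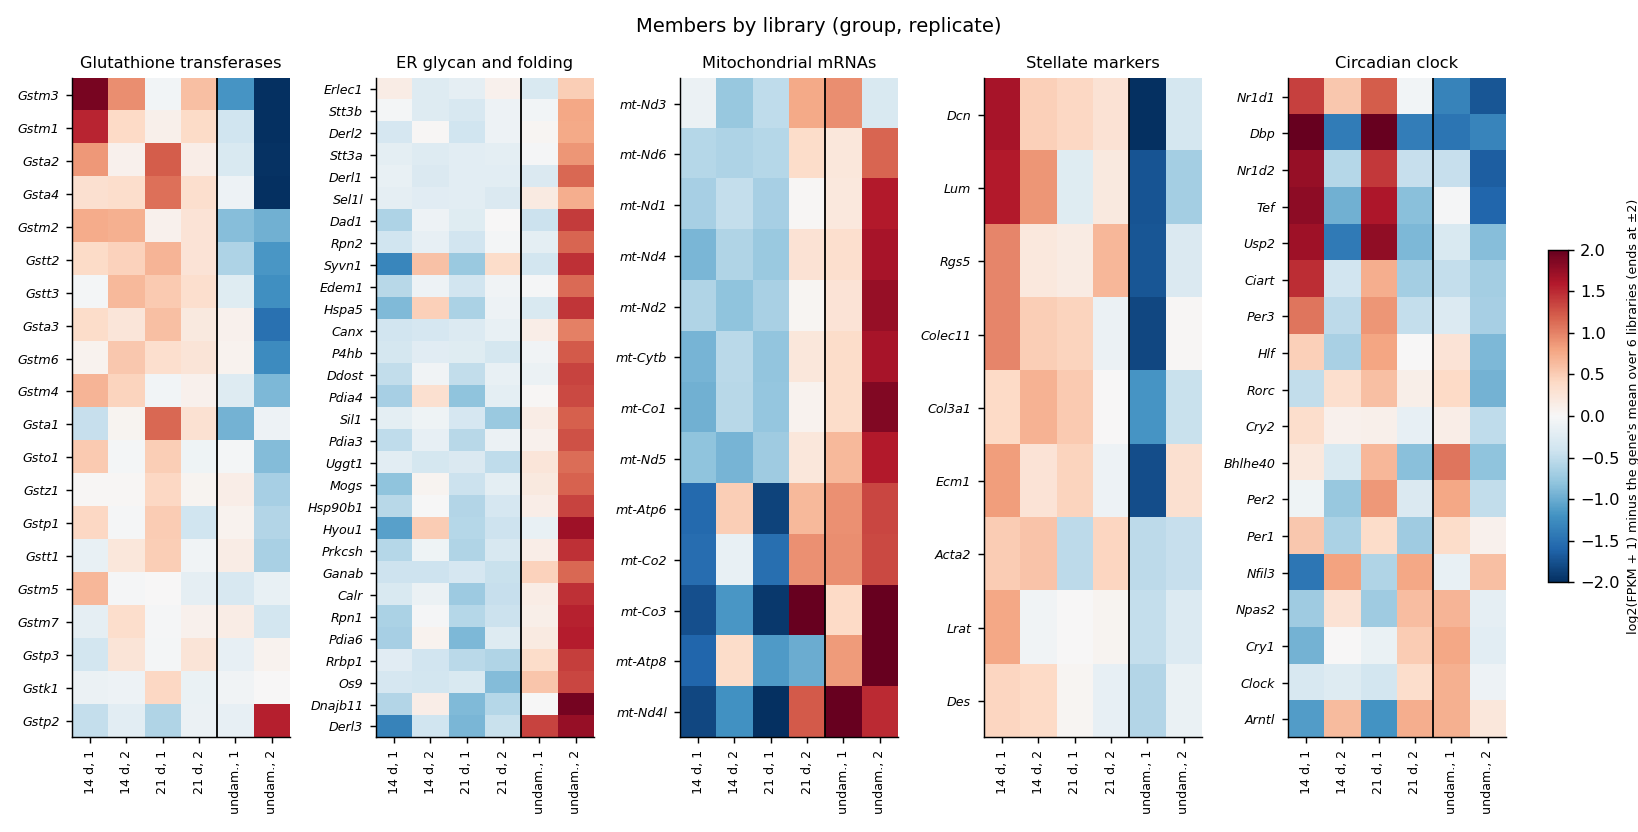
Colour gives log2(FPKM + 1) minus the mean of the gene over the 6 libraries, for members of 5 gene groups in rows and the 4 regrown libraries and then the 2 undamaged libraries in columns, with the colour scale ending at 2 in either direction. Undamaged replicate 2 is the darkest red column among ER factors, most glutathione transferases are blue in undamaged liver, and the clock genes follow the replicate number in regrown liver.

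Acute-phase genes, by which the liver answers inflammation, were bracketed by the undamaged libraries. The mean of regrown liver lay between the undamaged values in 21 of 29 genes, and 1 was below both (background 14.4%). Counts of means lying between are to be read against 4173 of all 10438 tested genes. The median was -1.34, but 0.33 against undamaged replicate 1 and -2.85 against undamaged replicate 2. Saa1, a serum amyloid, had 1163, 227, 312 and 19.1 FPKM in regrown liver, against 19.9 and 20927 FPKM in undamaged liver. The regrown libraries spread from the low undamaged value to far below the high one, so no level of return can be read for it. Kupffer cell and macrophage markers lay between the undamaged values in 13 of 13 genes, with medians of 2.55 and -1.46 against undamaged replicates 1 and 2, and endothelial markers in 13 of 13, with medians of 1.02 and -0.92. Clec4f, the lectin that marks Kupffer cells, had 63.5, 64.8, 35.2 and 42.6 FPKM in regrown liver, against 9.16 and 183 FPKM in undamaged liver. Class II antigen presentation genes lay between in 6 of 6 (medians of 2.50 and -0.42), and neutrophil markers in 6 of 6 (1.11 and -1.79). Interferon response genes had 3 of 22 above both (background 11.6%) and 1 below (background 14.4%), with medians of 0.95 and -0.23 against undamaged replicates 1 and 2. Chemokines had 1 of 11 on either side, beside the same backgrounds, with medians of 0.74 and -1.48. After rescaling 3 of 6 class II genes and 4 of 13 endothelial markers were above both (rescaled background 27.5%). So were 12 of 22 interferon response genes and 2 of 11 chemokines, and 1 interferon response gene was below both (rescaled background 1.77%). Acute-phase genes and Kupffer cell and neutrophil markers had 0 outside in either direction after rescaling.

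Counts for the other lists are to be read against 11.6% above both and 14.4% below both over all tested genes. Immediate early genes, the first to answer hepatectomy, had 0 of 16 above both and 2 below both, with a median of -0.38, against 1.26 at 6 h. Fatty acid oxidation and PPARA target genes had 0 of 23 above both and 2 below both, with a median of 0.45. Angptl4, an inhibitor of lipoprotein lipase, had 16.6, 11.6, 14.9 and 8.02 FPKM in regrown liver, against 17.8 and 75.3 FPKM in undamaged liver, where undamaged replicate 2 alone was high. Creb3l3, a fasting factor of hepatocytes, had 78.5, 86.2, 111 and 89.3 FPKM in regrown liver, against 114 and 186 FPKM in undamaged liver. Glucose metabolism had 1 of 18 above both and 2 below both, G1 cyclins, kinases and inhibitors 1 and 2 of 13, p53 targets 2 and 2 of 12, YAP and TEAD targets 1 and 1 of 11, and fibrillar matrix genes 3 and 1 of 12. Metallothionein, iron and heme genes had 1 of 16 above both and 4 below both. Unfolded protein and amino acid response genes had 2 of 18 above both and 3 below both, with medians of 0.04 and -1.56 against undamaged replicates 1 and 2. The 3 below both were Calr, Pdia6 and Hsp90b1, already counted among the ER factors, so this count repeats those values. Erythroid markers had 0 of 5 outside in either direction, with a median of 1.59.

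**Figure D5:**
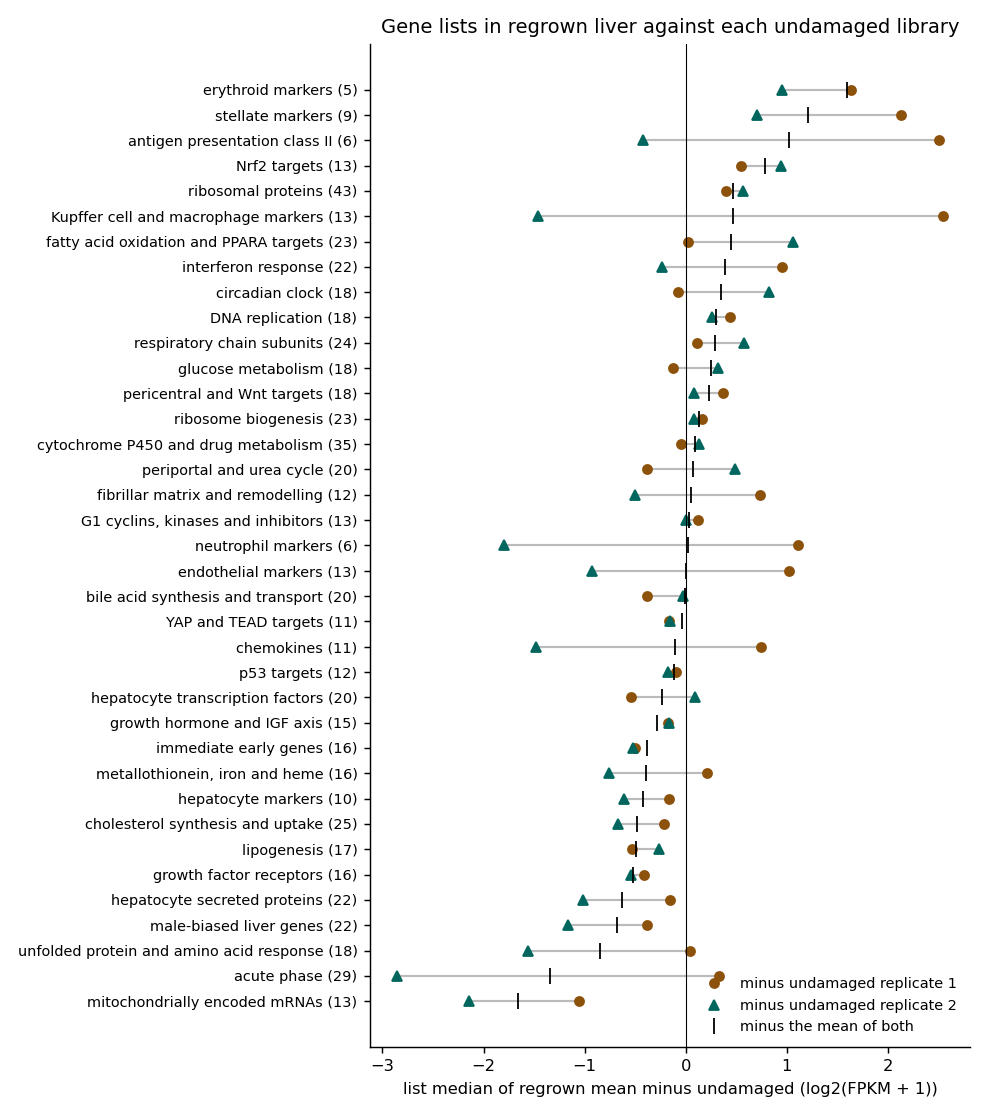
The median difference of regrown liver in log2(FPKM + 1) is plotted for each gene list against undamaged replicate 1 (circles), undamaged replicate 2 (triangles) and their mean (bars), with the number of tested genes in parentheses. Lists whose symbols lie on the same side of 0, such as stellate markers (2.13 and 0.70) and mitochondrially encoded mRNAs (-1.05 and -2.14), contrast with the Kupffer cell list (2.55 and -1.46) and the acute-phase list (0.33 and -2.85), whose symbols lie on opposite sides.

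Between the regrown times no gene was called (0% of 10438; limma, smallest adjusted p = 1), and 117 genes had an unadjusted p under 0.05, 32 higher and 85 lower at 21 d. These 117 are fewer than the 0.05 share of 10438 genes that the threshold passes where nothing differs. The spread in this test was pooled over 14 d, 21 d and undamaged liver. The undamaged libraries differed by at least 1 on the log2 scale in 1883 genes, the 14 d libraries in 633 and the 21 d libraries in 684. The shortfall therefore does not show that the times are alike. The genes named next have the largest moderated t among those whose 14 d and 21 d libraries did not overlap. That choice fixes the lack of overlap, so they are a description. They included several male-biased genes. Mup21 had 235 and 273 FPKM at 21 d, against 62.2 and 127 FPKM at 14 d, with 532 and 1434 FPKM in undamaged liver. Hsd3b5, a steroid dehydrogenase of male liver, had 243 and 122 FPKM at 21 d, against 37.8 and 101 FPKM at 14 d. Its 21 d values lay close to those of undamaged liver, 201 and 106 FPKM. Cyp4a12b and the peptidase Mme were also higher at 21 d, by 1.55 and 1.47 on the log2 scale. So was Rps27rt, a ribosomal protein copy, by 1.59. Of the 50-base windows, 91.1% of Rps27rt and 49.4% of Cyp4a12b occur in another gene. Lower at 21 d were Cebpb, the factor of the acute phase and of early regeneration, with 27.9 and 19.8 FPKM at 21 d, against 59.3 and 70.3 FPKM at 14 d. Pim3, a kinase, Mvd, an enzyme of cholesterol synthesis, Htatip2 and Cyp2c69 differed by -1.01, -1.30, -1.10 and -2.19. The undamaged values of Cebpb, 40.7 and 73.3 FPKM, were nearer to those at 14 d.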

How the data were processed

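The values are FPKM that the authors deposited in 1 table of 54532 genes and 20 libraries, for bulk RNA of mouse hepatocytes. Reads were aligned with HISAT2 2.0.5 to mm10, per the submitters' processing notes. For the counting step, its annotation and its strand setting the sources used here name nothing. Gene symbols, exon lengths and positions came from GENCODE M21 (GRCm38) for 54495 identifiers. One undamaged column was matched to its sample because the other carries the number of the other replicate. Between 97.9% and 98.7% of low values (up to 20 reads) were whole reads within 0.05, and the depth they imply was 13.7 M to 25.5 M reads in the 6 libraries. Depth ran from 0.873 to 1.94 times that implied by the FPKM values, so the libraries appear to have been scaled.

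Genes with an FPKM of at least 1 in 2 of the 6 libraries were fitted as log2(FPKM + 1) with limma 3.58.1 (R 4.3.3; trend and robust options, residual df 4), with 1 mean for regrown and 1 for undamaged liver and no covariate; a fit with 3 means gave 21 d minus 14 d. The procedure was tested on simulated data. Benjamini-Hochberg adjustment ran over all 10438 genes. The text names the 12 genes each way with the largest moderated t outside both undamaged libraries, the 5 each way between the times, and members of 42 gene lists by t and by level. Members of the glutathione transferase, Akr1c, major urinary protein and ER families, genes whose intervals lay inside 2-fold, genes given as overlapping, the clock outputs, Saa1 and Clec4f were, where outside that rule, chosen after their values were seen. The libraries, lists and tests were chosen with earlier results of these data known. Alternatives were another pseudocount, 2 other filters, 2 scalings, all 20 libraries, the first submission, a replicate block, limma-voom on recovered reads and each library left out. The Hep-Org libraries were not compared, and some genes that the naming rule picked are not reported here.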

Additional observations from a re-analysis of the deposited data

Results flagged for a closer look

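In 11 of the 108 genes named in the text, 1 of the 4 regrown libraries stood apart from the other 3 by Dixon's criterion for the ratio of gap to range at the 95% level, which chance flags in about 1 of 20 groups. The library was 14 d replicate 1 in 5 genes. It was the highest for Gstm1 (1139 FPKM, the others at 525 or less), Nqo1 (9.88 FPKM) and the stellate markers Dcn (45.1 FPKM) and Lrat (3.36 FPKM), and the lowest for Cyp2f2 (362 FPKM). It also had the highest sum of stellate markers, 125 FPKM, against 72.2 FPKM or less in the other regrown libraries. The highest library was 21 d replicate 2 for mt-Nd5 (3911 FPKM), mt-Nd6 (4488 FPKM) and mt-Co3 (946 FPKM, the others at 89.2 or less). This library had the largest mitochondrial share of reads among regrown liver, 8.41%. Of the 50-base windows of mt-Co3, 99.9% occur in another gene. The highest library was 21 d replicate 1 for Gsta4 (47.9 FPKM) and Akr1c20 (67.9 FPKM), and 14 d replicate 2 was the lowest for Prox1 (6.75 FPKM). In 2 further genes both 14 d libraries lay on one side of undamaged liver and both 21 d libraries on the other, a difference that was not tested by itself. Cyp1a2 was higher at 21 d by 0.59 on the log2 scale, with 576 and 454 FPKM at 21 d and 322 and 360 FPKM at 14 d, beside 419 and 437 FPKM in undamaged liver. Htatip2, which encodes an oxidoreductase, differed by -1.10, with 10.6 and 11.3 FPKM at 21 d and 29.4 and 20.5 FPKM at 14 d, beside 13.1 and 18.6 FPKM in undamaged liver.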

How the results depend on the processing

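Numbers of calls were unstable. The 1 call, Mup4, became 0 calls (0 lower) with a pseudocount of 0.1, with a mean FPKM of at least 5, with all 20 libraries and a submission term, with the first submission only and with limma-voom on recovered reads. It became 2 calls (2 lower) without a filter, 8 (1 higher, 7 lower) with all 20 libraries and no submission term, and 13 (11 higher, 2 lower) with FPKM rescaled to equal sums. Leaving out 1 library gave 0 to 586 calls (0 to 111 higher, 0 to 475 lower), with the highest count without undamaged replicate 1, where the lone undamaged library is assumed to vary like the other group. Genes outside both undamaged libraries by at least 1 numbered 247 with a mean FPKM of at least 5, 928 after rescaling, 739 in the first submission and 396 to 1571 with 1 library left out. Genes with an interval inside 2-fold numbered 496 after rescaling, 1093 in the first submission and 1274 to 2123 with 1 library left out. Between 21 d and 14 d rescaling gave 2 calls, and every library left out gave 0. Clec4f, at 0.24, reversed to -1.85 without undamaged replicate 1 and was 2.32 without undamaged replicate 2. Mup4 kept its direction under all 16 alternatives. Replicate differences correlated at 0.402 between 14 d and 21 d, whose replicates share a submission, but at 0.033 and 0.046 with undamaged liver, so the numbers were not taken to pair all 3 groups, and with a replicate block there were 12 calls (1 higher, 11 lower). The cause of these changes was not tested. The number of libraries, 4 and 2, and the spread between the undamaged libraries set the width of the intervals, and depth limits genes under about 1 FPKM.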
